A study of Mus musculus with 6 samples.

Results

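The chemokine Cxcl12, its receptors Cxcr4 and Ackr3, and a further group of chemokines made by stroma and vessels (Cxcl14, Cxcl13, Ccl2, Ccl21a and Cxcl10) were followed in whole pancreas of E12.5 mouse embryos (midgestation, when pancreatic epithelium branches into its mesenchyme). The members were all probe sets (groups of array probes summarised to 1 value) that the platform annotation names with 1 of these 8 symbols and no other. There were 11 such probe sets among 45037, for 7 of the 8 genes. Cxcl12 had 3, Cxcl13 and Cxcl14 had 2 each, and Cxcr4, Ackr3, Ccl2 and Cxcl10 had 1 each. Ccl21a shares its single probe set with near-identical Ccl21 copies and had none of its own. The arrays hold whole organ, so the cells that made each transcript were not measured.

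The study compared 3 control arrays, labelled wild type, with 3 arrays labelled Hox6 null, all on the Bl6 strain. Hoxa6, Hoxb6 and Hoxc6 are the paralogous genes meant by Hox6, and all encode transcription factors. The labels give neither the alleles, nor the number of embryos in a sample, nor their sex or litter, so that p-values measure only the spread between these samples. RNA was taken from dissected, frozen pancreas, and 10 ng per sample was amplified before hybridisation.

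Chemokines are small secreted proteins that guide migrating cells along a gradient and act through receptors with several membrane passes. Cxcl12 is made by mesenchyme and other stroma, and attracts endothelial, blood-forming and other cells that carry Cxcr4. Ackr3 binds the same ligand and takes it up without coupling to G proteins, which lowers the amount outside the cell. In embryonic organs this axis is known for vessel growth and for the seeding of blood-forming cells.

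A few properties of the whole set bear on every value. Levels are log2 array intensities, to be compared between arrays and not read as amounts of RNA. Their median over probe sets was 5.98, and each step of 1 is a doubling. Control arrays correlated with each other at 0.994 to 0.995 over probe sets, which are not independent, and null arrays at 0.980 to 0.987. The mean of 23 epithelial markers was 7.98 to 8.05 in controls and 8.06 in null 3, but 8.99 in null 1 and 8.82 in null 2. Pdx1, a transcription factor of pancreatic epithelium that checks the tissue, read 8.24 to 8.62 in controls and 8.78 to 9.97 in null arrays. Hoxb6 read 8.78, 8.97 and 9.36 in control and 8.25, 8.71 and 8.91 in null arrays. The 3 probe sets of Hoxc6 had positive differences of +0.13, +0.47 and +0.73, the last without overlap but at 3.91 to 5.38, below the median probe set. Since the disrupted parts of these genes are not given, these probe sets do not check the genotype.

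None of the 11 probe sets passed the test of null against control (limma, adjusted p under 0.05 over all probe sets), where 0.00222% of all probe sets did. The smallest adjusted p among them was 0.184. At an unadjusted p under 0.05 (limma) there were 2 lower and 1 higher, against 6.79% and 8.17% of all probe sets. The arrays of the groups did not overlap for 1 probe set with lower null values, against 9.89% of all, and for 1 with higher null values, against 12.1% of all. The 2 lower at an unadjusted p under 0.05 were both probe sets of Cxcl12. Of the 11, 9 had a negative difference, where 42.7% of all probe sets did. The median difference was -0.23 for the members and +0.04 (0.0416) for all probe sets. By array, the median over members relative to the control mean was -0.41 in null 1 and -0.33 in null 2 but +0.09 in null 3. With the mean epithelial level of each array added to the model, 6 members were positive and 5 negative. That fit rests mostly on null 3, the only null array with an epithelial level near the controls. Members with several probe sets count more than once in these numbers.

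**Figure D1:**
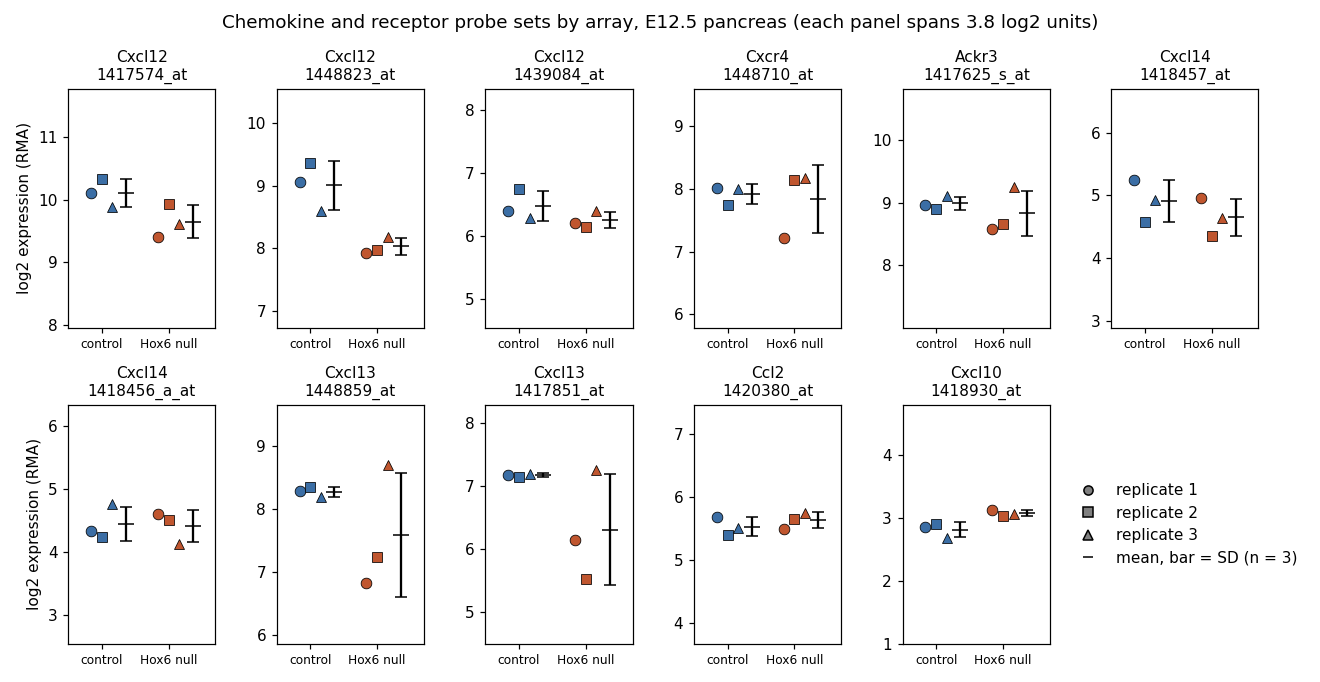
Log2 expression of each of the 11 probe sets on the 3 control arrays (blue) and the 3 Hox6 null arrays (orange), with the mean and SD (n = 3) at the side; the vertical axis of each panel is log2 and covers the same span. Cxcl12 probe set 1448823_at separates the groups, and both Cxcl13 probe sets place null 1 and null 2 low and null 3 at or above the controls.

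Cxcl12 had the largest single difference of the members. Its probe set 1448823_at read 9.06, 9.36 and 8.59 in control arrays and 7.92, 7.98 and 8.19 in null arrays. All null arrays thus lay below all controls, and control 3 was the control nearest to them. The means were 9.0 ± 0.39 (SD, n = 3) and 8.03 ± 0.14 (SD, n = 3), a difference of -0.97 ± 0.20 (SE), or 1.96-fold, with an adjusted p of 0.184 (limma). This is rank 355 by p among all 45037 probe sets. Over the alternatives tried, the difference stayed between -1.18 and -0.79 and the adjusted p between 0.0507 and 0.818.

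The other Cxcl12 probe sets showed smaller differences. Probe set 1417574_at, which had the highest mean, read 10.10, 10.32 and 9.89 in control arrays and 9.41, 9.93 and 9.61 in null arrays. Here null 2 lay above control 3, so the groups overlapped, and the difference was -0.46 ± 0.17 (SE) with an adjusted p of 0.298 (limma). The dimmer probe set 1439084_at read 6.39, 6.74 and 6.28 in control arrays and 6.21, 6.14 and 6.39 in null arrays. Its groups overlapped as well, with a difference of -0.23 ± 0.15 (SE) and an adjusted p of 0.486 (limma). Without control 2 this difference was -0.09 (-0.0924).

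The probe sets of Cxcl12 therefore differed in size but had the same sign. On the same array, 1448823_at minus 1417574_at gave gaps of -1.04, -0.96 and -1.30 log2 units in controls. In null arrays the gaps were -1.48, -1.95 and -1.42, all larger than in any control. The mean gap moved by -0.52, and an exact two-sided permutation test gave p = 0.1, the smallest that 3 against 3 arrays allow. The gap of 1439084_at minus 1448823_at moved by +0.75, again without overlap and with an exact permutation p of 0.1. Of 5 such gaps within Cxcl12, Cxcl13 and Cxcl14, these 2 were without overlap. Both contain 1448823_at, which alone already separated the groups, so they are not separate results. How often such gaps lack overlap in other genes was not measured. The annotation does not say which transcript ends each probe set reads.

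The promoter of Cxcl12 is shown because its product had the largest difference, and those of Cxcl13 and Cxcl10 because they had the next largest difference and the single higher one without overlap. Each window is the 250 bases before the RefSeq start in GRCm38.p6, at chr6:117168285-117168534 (+ strand), chr5:95956689-95956938 (+ strand) and chr5:92348890-92349139 (- strand). Capitals mark letters matching any of 5 searched motifs. These were the Hox core TAAT, the Hox and Pbx composite TGATNNAT, the hypoxia element core ACGTG and the interferon element core GAAANNGAA on both strands, and the TATA box TATAAA on the gene's strand.
Cxcl12: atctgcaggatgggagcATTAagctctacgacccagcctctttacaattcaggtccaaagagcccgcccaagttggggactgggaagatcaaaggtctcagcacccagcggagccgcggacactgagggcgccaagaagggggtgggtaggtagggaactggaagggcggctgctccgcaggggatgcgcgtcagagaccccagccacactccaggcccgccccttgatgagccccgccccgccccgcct
Cxcl13: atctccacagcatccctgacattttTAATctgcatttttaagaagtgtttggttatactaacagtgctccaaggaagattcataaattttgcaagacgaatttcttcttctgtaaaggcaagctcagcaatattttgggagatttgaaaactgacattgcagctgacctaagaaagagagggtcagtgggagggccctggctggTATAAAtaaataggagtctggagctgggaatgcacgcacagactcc
Cxcl10: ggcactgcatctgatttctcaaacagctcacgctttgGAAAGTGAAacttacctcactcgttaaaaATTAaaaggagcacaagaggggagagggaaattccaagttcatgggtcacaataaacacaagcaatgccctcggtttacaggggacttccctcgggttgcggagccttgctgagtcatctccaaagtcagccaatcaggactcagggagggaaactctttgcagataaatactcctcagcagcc

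In these windows and the 50 bases after each start, Cxcl12, Cxcl13 and Cxcl10 each held 1 match to TAAT, a word found in 58% of all 32851 windows of 300 bases. Cxcl13 also held 1 TATAAA, present in 8.32% of all windows, and Cxcl10 held 1 interferon element, present in 8.56%. No searched motifs overlapped in the printed stretches. The composite TGATNNAT (8.85% of windows) and ACGTG (19.6%) were in none of the 7 member windows. The Cxcl12 window had 64.7% G and C and 20 CpG pairs, while that of Cxcl13 had 44.0% and 3. The medians over all windows were 52.7% and 7. The matches describe letters only, and Ccl2 had no window in the table.

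The levels of both receptors varied among the null arrays, and their groups overlapped. Cxcr4, the signalling receptor, read 8.02, 7.73 and 7.99 in controls and 7.22, 8.14 and 8.16 in null arrays. Null 1 was the lowest array and null 2 and null 3 were above all controls. The difference was -0.07 ± 0.25 (SE), with a 95% interval of -0.67 to 0.52 and an adjusted p of 0.906 (limma). Without null 1 it was +0.24, so that the sign rests on that array. With any other array left out it was between -0.24 and -0.02 (-0.0234).

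Ackr3, the scavenging receptor, read 8.96, 8.91 and 9.11 in controls and 8.58, 8.66 and 9.24 in null arrays. Null 1 and null 2 lay below all controls and null 3 above them. The difference was -0.16 ± 0.18 (SE), with a 95% interval of -0.59 to 0.27 and an adjusted p of 0.689 (limma). It was -0.37 without null 3, -0.04 (-0.0382) without null 1 and -0.08 (-0.0788) without null 2.

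**Figure D2:**
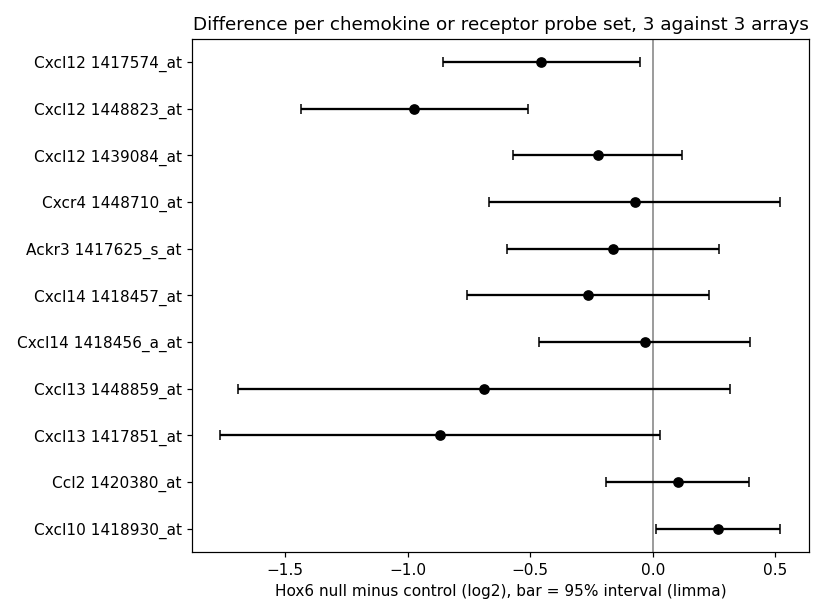
Hox6 null minus control on the log2 scale for each of the 11 probe sets, with 95% intervals from limma (3 against 3 arrays). The intervals of Cxcl12 1448823_at and 1417574_at lie below 0 and that of Cxcl10 above it before adjustment for 45037 tests, and the other 8 intervals include 0.

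Cxcl13, a chemokine of lymphoid tissue stroma that draws in B cells, had the second largest difference and the widest spread. Probe set 1448859_at read 8.28, 8.34 and 8.18 in controls and 6.81, 7.23 and 8.69 in null arrays. Probe set 1417851_at read 7.18, 7.14 and 7.20 in controls and 6.14, 5.52 and 7.26 in null arrays. By both, null 1 and null 2 were below all controls and null 3 was above all of them. The SD was 0.08 in control and 0.99 in null arrays for the first probe set, and 0.03 and 0.88 for the second (n = 3 each).

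The Cxcl13 differences were -0.69 ± 0.43 (SE) and -0.87 ± 0.38 (SE), with adjusted p of 0.469 and 0.345 (limma). Without null 3 they became -1.25 ± 0.15 (SE) and -1.34 ± 0.18 (SE), with adjusted p of 0.0168 and 0.0206 (limma), and these were the 2 of 11 member probe sets then past the threshold. Without null 1 they were -0.31 and -0.78, and without null 2 -0.52 and -0.48, with adjusted p of 0.505 to 0.764 (limma). In the comparison without null 3, 2.2% of all probe sets passed with lower null values. Over all alternatives the adjusted p ranged from 0.0168 to 1.0 for the first and from 0.0206 to 1.0 for the second.

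The remaining members all lay below the median probe set. Cxcl14, a chemokine of epithelia and fibroblasts, read 4.57 to 5.24 in controls and 4.36 to 4.96 in null arrays by 1418457_at, and 4.24 to 4.75 and 4.12 to 4.60 by 1418456_a_at. The groups overlapped for both, with differences of -0.26 ± 0.21 (SE) and -0.03 ± 0.18 (SE). Ccl2, which attracts monocytes, read 5.69, 5.39 and 5.50 in controls and 5.49, 5.65 and 5.74 in null arrays, with overlap and a difference of +0.10 ± 0.12 (SE).

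Cxcl10, an interferon-induced chemokine for T cells, read 2.85, 2.90 and 2.67 in controls and 3.12, 3.03 and 3.06 in null arrays. All null arrays were above all controls, by a difference of +0.26 ± 0.11 (SE) with an adjusted p of 0.32 (limma). The probe set is among the lowest 9.22% of all by mean level, where background sets the values and a difference carries little weight.

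**Figure D3:**
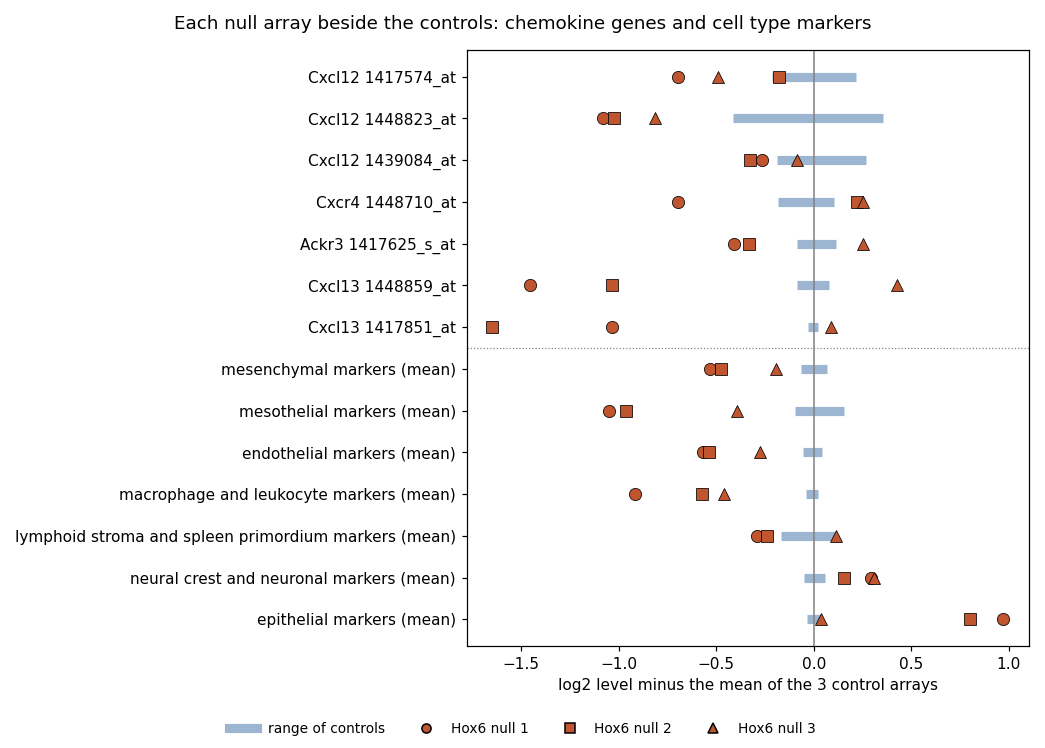
Log2 level of each Hox6 null array (symbols) minus the mean of the controls, with the range of the 3 controls as a blue bar, for probe sets of Cxcl12, Cxcl13, Cxcr4 and Ackr3 (above the dotted line) and for the mean of each marker list (below it). Null 3 lies at -0.82 for Cxcl12 1448823_at, -0.49 for 1417574_at and -0.09 for 1439084_at, but at +0.42 and +0.09 for Cxcl13.

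Markers of several cell types also stood apart in the null arrays, and in whole organ fewer cells of a type and less RNA per cell cannot be told apart. Of 24 mesenchymal markers 21 had a negative difference and 12 had all null arrays below all controls. Their mean was 8.75 to 8.89 in controls and 8.29 to 8.63 in null arrays, with Col1a2, a collagen gene, at -0.40 and Vim at -0.12. Of 25 endothelial markers 23 were negative and 15 had no overlap, with a mean of 7.61 to 7.71 in controls and 7.10 to 7.39 in null arrays. Cdh5 and Sox18, genes of vessel lining, stood at -0.36 and -0.30. None of these lists had a member past the threshold (limma, all probe sets), and over 18193 genes with 1 probe set each 11.7% lay below without overlap and 44% were negative.

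Blood cell, mesothelial and epithelial lists stood apart too. All 20 macrophage and leukocyte markers were negative, with means of 7.87 to 7.93 in controls and 6.99 to 7.45 in null arrays. Laptm5 and C1qb, markers of these cells, stood at -0.39 and -0.64. Of 12 mesothelial markers 10 were negative (means 7.37 to 7.62 and 6.42 to 7.07), with Upk3b at -0.63 and Aldh1a2 at +0.11. Of 23 epithelial markers 21 were positive, with Cldn6 at +0.61 and Epcam at +0.58. Of 11 lymphoid stroma and spleen primordium markers 6 were negative and 5 positive, with a median of -0.08. Their means were 6.69 to 6.97 in controls and 6.57 to 6.97 in null arrays, which overlapped. Barx1 and Prox1, named for their high levels and not for their differences, stood at +0.14 and +0.77.

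Set beside these lists array by array, Cxcl12 and Cxcl13 stood on opposite sides of the control mean in null 3. Relative to the control mean, Cxcl12 1448823_at, the probe set with the largest difference, stood at -1.08, -1.02 and -0.82 in null 1, null 2 and null 3. The brighter 1417574_at stood at -0.70, -0.18 and -0.49, and 1439084_at at -0.26, -0.33 and -0.09. For 1439084_at, null 3 lay within the range of the controls (-0.19 to +0.27). The mean of the mesenchymal markers stood at -0.53, -0.47 and -0.19, and that of the endothelial markers at -0.57, -0.54 and -0.28. Cxcl13 1448859_at stood at -1.46, -1.04 and +0.42, while the mixed list of lymphoid stroma and spleen primordium markers stood at -0.29, -0.24 and +0.11. The control arrays of that list spread from -0.17 to +0.11, so its null 3 value lay within the controls. With the mean epithelial level of each array as a covariate, Cxcl12 1448823_at was at -0.79 ± 0.28 (SE, adjusted p = 0.403, limma), in a range over alternatives of 0.0507 to 0.818. The other Cxcl12 probe sets were at -0.43 for 1417574_at and -0.07 for 1439084_at (adjusted p of 0.619 and 0.94, limma). Under this covariate Cxcl13 was at +0.51 ± 0.14 (SE) and +0.05 ± 0.32 (SE), Cxcr4 at +0.34 and Ackr3 at +0.27. Among null arrays only null 3 had an epithelial mean near the controls (8.06 against 7.98 to 8.05). The genotype term of this fit therefore rests mostly on null 3, and its values largely repeat that array. No member reached the threshold under the covariate, and the part of the other cell types in the differences was not tested.

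**Figure D4:**
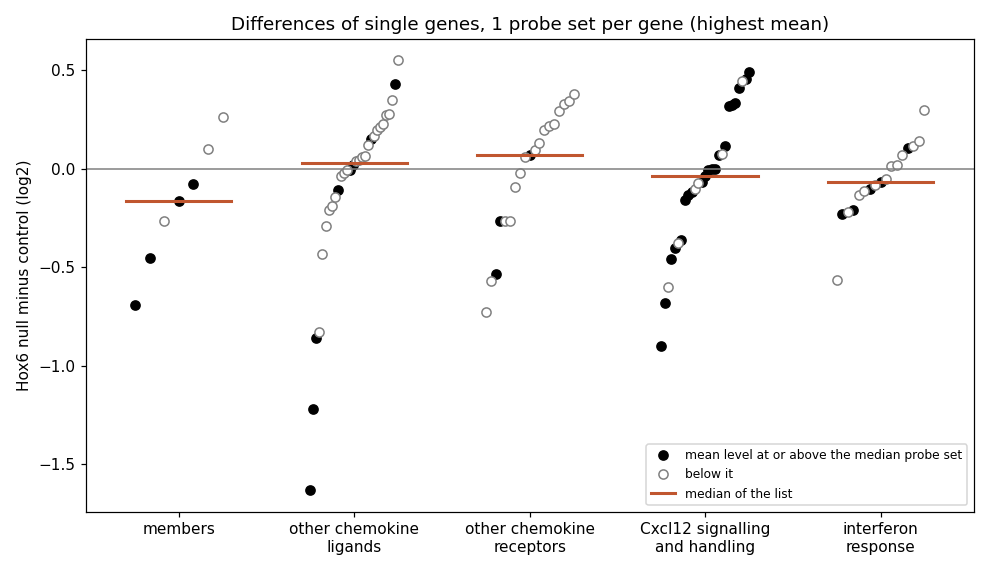
Hox6 null minus control (log2) for each gene of the members and of the 4 wider lists, 1 probe set per gene with the highest mean over all arrays; filled points have a mean level at or above the median probe set, and orange lines are list medians. Medians lie between -0.16 and +0.07, and the lowest points are Ppbp, Ccl9 and Grk5.

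Of 30 other chemokine ligands measured, 14 were negative and 16 positive, with a median of +0.03 (0.0288), and 0 passed the threshold (limma, where 0.0055% of genes did). Unadjusted p under 0.05 (limma) was reached by 4 lower and 1 higher, against 7.77% and 8.18% of genes. Without overlap there were 3 lower and 2 higher, against 11.7% and 12.2% of genes. Ccl9, made by myeloid cells, read 7.22, 7.21 and 7.47 in controls and 5.93, 5.87 and 6.43 in null arrays. All null arrays lay below all controls, with a difference of -1.22 ± 0.17 (SE) and an adjusted p of 0.116 (limma). The platelet chemokine Pf4 stood at -0.86 ± 0.23 (SE) without overlap. Ppbp, also of platelets, stood at -1.63 ± 0.58 (SE), with null 3 at 8.02 among controls of 7.90 to 8.50. Ccl28, an epithelial chemokine, stood at +0.43 ± 0.24 (SE) with overlap.

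Without null 3, 5 of the 30 ligands passed the threshold (limma), 4 of them lower, namely Ccl9, Pf4, Ppbp and Ccl3, and 1 higher, Ccl28. In that comparison 2.65% of genes passed lower and 2.55% higher. Ccl9 was also called with an intensity trend and robust prior (adjusted p = 0.0439, limma) and with array weights (adjusted p = 0.0486, limma), with alternatives spanning 0.0131 to 0.463.

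Receptors and signalling genes had medians close to 0. Of 19 other chemokine receptors, 8 were negative and 11 positive, the median was +0.07 and 0 passed (limma). At an unadjusted p under 0.05 there were 3 lower and 1 higher of 19, beside the 7.77% and 8.18% of all genes. Without overlap there were 4 lower and 3 higher, beside 11.7% and 12.2% of all genes. Only 3 of the 19 receptors had a mean at or above the median probe set. Of these Ackr4, a scavenger of Ccl21 and related ligands, stood at -0.27 ± 0.10 (SE) without overlap. Cx3cr1, a receptor of macrophages, stood at -0.53 ± 0.24 (SE), also without overlap, and Ackr1 at +0.07 ± 0.23 (SE).

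Of 27 genes listed for Cxcl12 signalling and handling, 16 were negative and 11 positive, with a median of -0.04 (-0.0356) and 0 past the threshold (limma). At an unadjusted p under 0.05 there were 5 lower and 3 higher of 27, again beside 7.77% and 8.18% of all genes. Grk5, a kinase that desensitises receptors, stood at -0.90 ± 0.24 (SE), and the GTPase gene Rac2 of blood cells at -0.68 ± 0.20 (SE). Jak2, a cytokine receptor kinase, stood at -0.40 ± 0.17 (SE) and Cxxc4, better known as a Wnt regulator, at +0.33 ± 0.12 (SE). These 4, named for the smallest p at or above the median level, had no overlap between groups. In the whole list 6 genes had lower and 4 had higher null values without overlap, beside 11.7% and 12.2% of all genes. Without null 3, Grk5, Rac2 and the matrix protease gene Mmp2 passed, all lower, where 2.65% of genes did.

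Interferon response genes were measured beside Cxcl10. Of 17, 10 were negative and 7 positive, with a median of -0.07, 0 past the threshold and 1 lower and 0 higher at an unadjusted p under 0.05 (limma; 7.77% and 8.18% of all genes). Stat2, a transcription factor of this response, stood at -0.23 ± 0.13 (SE), Bst2 at -0.21 ± 0.25 (SE), Ifit2 at +0.11 ± 0.14 (SE) and Irf1 at -0.07 ± 0.11 (SE), all with overlap. None of these 17 genes had all null arrays above all controls, as Cxcl10 did, where 12.2% of genes have.

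The genes with the most like pattern were found by the root mean square distance over the 6 arrays between levels set to the control mean, among 19808 singly named probe sets at or above the median level. For Cxcl12 1417574_at these were Prkaa1, Gabarapl1 and Hps5, at distances of 0.098 to 0.104 log2 units. For Cxcr4 they were Dlc1, Mnat1 and Cwc25, at 0.080 to 0.109. For Ackr3 they were Clp1, Dcp1a and B3gnt7, at 0.021 to 0.033. The distances are a description over 6 arrays, with no test.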

How the data were processed

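Expression of whole E12.5 pancreas was measured on 6 arrays, 3 control and 3 Hox6 null. The deposited table holds log2 expression. RMA, affy and limma are listed without versions in the submitters' processing notes; RMA corrects background, quantile normalizes and summarises probes. A genome build was not given in the sources used here. Differences of dim probe sets may be understated, which was not measured here, and the precision is limited by how few arrays there are.

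Names came from the platform annotation. The Entrez identifiers of all 11 member probe sets matched the RefSeq table (GRCm38.p6), with the same symbols. The 64 array controls were left out. A linear model with genotype as its term was fitted with limma 3.58.1 in R 4.3.3 over 45037 probe sets (two-sided, Benjamini-Hochberg, threshold 0.05). For lists, the brightest probe set on average stood for each gene. On simulated data for this comparison, 44 of 100 probe sets changed by 1 log2 unit and 93 of 100 changed by 2 were recovered, with 3 false calls. The simulated noise was independent between probe sets and had the same SD in both groups. The real null arrays varied more than the controls, and over many probe sets at once, so these rates may not hold for them.

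Members, lists and tests were chosen with earlier results of these data known. Named genes were all members, the Hox6 genes, the 3 nearest patterns per axis gene and the 2 highest markers per list. Up to 4 genes per wider list were also named, by smallest p at or above the median level. Pdx1 was named as a check of the tissue, outside these rules. Ccl3, Mmp2 and Ccr2 were named after their values were seen. Marker lists of neural crest and neurons (11 of 14 positive, median +0.28; Hand2 -0.13, Erbb3 +0.68) and of erythroid cells (9 of 12 negative, median -0.35; Hba-x -0.02 (-0.0234), Hbb-y +0.08) were also measured. Hoxa6 had no probe set of its own. Array pairs shared 53 to 166 identical values, so no array was counted as a copy.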

Additional observations from a re-analysis of the deposited data

How the results depend on the processing

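Each choice was varied alone, for normalization, filter on dim probe sets, variance prior, array weights, feature, pairing, an epithelial covariate and a minimum fold, and single arrays were left out; the same alternatives for the wider lists were added after the data had been seen. There were 169 member values, from single probe sets or from the mean over a gene's probe sets. Of these 159 kept their sign and their side of the threshold, 8 changed sign and 2 passed the threshold. Given the epithelial covariate, Cxcr4 was +0.34, Ackr3 +0.27, Cxcl13 1448859_at +0.51 and 1417851_at +0.051, and the median over members was also +0.051. Such values rest mostly on null 3, the only null array with an epithelial level near the controls. Leaving out 1 array gave Cxcr4 between -0.24 and +0.24, the latter without null 1. With 1 array left out, Cxcl14 1418456_a_at lay between -0.13 and +0.12. Cxcl14 1418456_a_at was +0.12 without control 3, +0.11 without null 3 and +0.000598 with array weights. No member passed in any fit except the 2 Cxcl13 probe sets without null 3, so that the count was 0 to 2 with 1 array left out. Among all probe sets the count was 1, and 0 to 1902 with 1 array left out, where 1902 is without null 3 (910 higher, 992 lower) and 3 is without control 1. It was 0 after repeated quantile normalization, 0 with a minimum fold of 1.2, 16 and 5 with the filters at the median level and at 7, 63 with an intensity trend and robust prior, 41 with array weights and 10 with the epithelial covariate. With 1 probe set per gene it was 13, and with the mean over probe sets also 13. Among the other chemokine ligands the count was 1 with the trend and robust prior, 1 with array weights, and 0 to 5 with 1 array left out. For Cxcl12 signalling and handling it was 0 to 3 with 1 array left out. The filters and the choice of feature also changed how many features were tested. What moved the counts was not tested in any of these fits. Same-numbered arrays deviated together with low correlations of 0.138, 0.005 (0.00487) and 0.062, so the numbers were not taken as pairs. Of the null arrays, null 3 correlated best in level with every control, so that correlation of levels cannot show pairs. With the replicate block 1 probe set passed in all and 0 members did, and Cxcl12 1448823_at had -0.97 ± 0.21 (SE) with an adjusted p of 0.225 (limma; range over alternatives 0.0507 to 0.818).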

Other observations

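Ccl21a, a chemokine of lymphatic vessels and lymphoid stroma, could not be read on its own. The probe set it shares with other Ccl21 copies read 6.47, 6.27 and 6.07 in control and 6.59, 6.40 and 6.31 in null arrays. The groups overlapped, with a difference of +0.16 ± 0.14 (SE) and an adjusted p of 0.592 (limma). Its values belong to the Ccl21 family as a whole.

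Ccl3, a macrophage chemokine, read 5.62, 5.50 and 5.75 in control and 4.52, 4.72 and 5.14 in null arrays, all below the controls (difference -0.83 ± 0.17, SE; adjusted p = 0.189, limma). Ccr2, the receptor of Ccl2 on monocytes, read 3.92, 4.43 and 4.44 in control and 3.36, 3.69 and 3.55 in null arrays, also without overlap but at levels below the median probe set. Ccl2 itself overlapped between the groups. Both genes were singled out after their values were seen.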
